A study of Homo sapiens with 12 samples.

Results

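The expression of 10 genes of zinc handling was examined in Hs 578T cells, a triple-negative breast cancer (TNBC) line, among the 55765 gene symbols counted. They were the metallothioneins MT1E, MT1F, MT1G, MT1M, MT1X and MT2A, the transcription factor MTF1, the zinc exporter SLC30A1 and the zinc importers SLC39A8 and SLC39A10, each taken by its symbol in the count tables. The cells had been transduced with lentivirus to express GFP or full-length NRF2, and the methods describe no cloning of the transduced cells. Both kinds of cells were then grown for 8 h in cystine-free medium (without Cyss) or in the same medium with 0.8 mM cystine added back (with Cyss). Both media held fetal bovine serum, methionine and glutamine, and each of the 4 groups (GFP with Cyss, GFP without Cyss, NRF2 with Cyss, NRF2 without Cyss) had 3 RNA-seq libraries.

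Metallothioneins are small proteins in which many cysteines bind zinc and copper ions. They take up free zinc, protect cells against metals and oxidants, and are strongly induced by metals and by glucocorticoids. MTF1 senses zinc in the cell and activates the metallothionein genes and SLC30A1 through short DNA motifs named metal response elements. Carriers of the SLC30 (ZnT) family move zinc out of the cytosol, and those of the SLC39 (ZIP) family move it in.

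Reads on genes numbered between 27334061 and 44734611 per library. The labels name the cells as epithelial, whereas the epithelial markers CDH1, EPCAM, CLDN3 and CLDN7 each had a group mean under 1 count per 1000000 reads (CPM) and KRT8, the fifth of the list, had group means from 4.95 to 6.09 CPM, and the mesenchymal markers VIM and FN1 had group means from 4329 to 4728 and from 24610 to 25820 CPM. NFE2L2, which encodes NRF2, had a mean normalized count of 3762 ± 102 (SD, n = 3) in GFP and 6719 ± 192 in NRF2 cells with Cyss, a fold of 1.79 in the direction of the labels. Reads from the introduced and the endogenous gene were counted together. The metallothionein transcripts were counted in bulk RNA, so that a change in RNA per cell and a change in the share of cells that express a gene cannot be told apart.

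Of the 6 metallothionein members, 4 were detected. MT1F had 0 reads in all 12 libraries, and MT1G had 1 read in a single library (GFP with Cyss, replicate 2). A count of 0 allows levels of up to 0.0671 to 0.11 CPM depending on the library (counting error only). The other metallothionein genes MT1A, MT1B, MT1H, MT1HL1, MT3 and MT4 were at 0 or 1 read in each library. MT1F and MT1G could therefore not be tested, and the remaining 8 members passed the count minimum in every comparison.

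The order of the detected members is given per kilobase of exon, as CPM divided by the length covered by all exons of the gene. MT2A was the most abundant, with 183 ± 3.63 CPM per kilobase (SD, n = 3) in GFP cells with Cyss, followed by MT1E with 29.5 ± 0.791 and SLC30A1 with 14.5 ± 1.87. SLC39A10 with 7.75 ± 0.397, MT1M with 6.79 ± 1.3 and MT1X with 6.29 ± 0.243 came next, and the ranges of MT1M over its 3 libraries overlapped those of both neighbours. MTF1 had 4.6 ± 0.0727 and SLC39A8 1.94 ± 0.0548 CPM per kilobase. In cells without Cyss, whether expressing GFP or NRF2, the means of MT1X and MT1M stood above that of SLC39A10, although in NRF2 cells the libraries of MT1M and SLC39A10 overlapped. With the longest transcript as the length, the mean of SLC39A10 (9.78 ± 0.65) stood above that of MT1X (9.73 ± 1.58) in NRF2 cells without Cyss, with overlapping libraries. The exon length of MT1X (1727 bases) includes a transcript that keeps introns, and its canonical transcript has 404 bases, so its level per kilobase depends on which transcripts the reads came from. The same holds for MT2A, with 914 bases against 401 in its canonical transcript. Exon lengths were also longer than the canonical transcript for MT1E (1052 against 746), MT1M (511 against 398), SLC39A10 (6917 against 5222) and SLC39A8 (8482 against 3152). Exons of MT1X and of SLC39A8 also overlap those of another annotated gene on the same strand, and reads in such overlaps could be left uncounted.

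The metallothionein members lie in 1 cluster on chromosome 16 (GRCh37, GENCODE 44). The detected ones are MT2A at chr16:56642496-56643409, MT1E at chr16:56659387-56661024, MT1M at chr16:56666571-56667893 and MT1X at chr16:56716382-56718108, all on the plus strand. MT1F lies at chr16:56691643-56694610 on the plus strand and MT1G at chr16:56700642-56701977 on the minus strand. The sequence before the start of a gene is where metal response elements are found, and promoter entries were held for 6 of the 10 members. The core of the element was searched as TGCACNC or TGCGCNC on both strands in the 250 bases before each start (RefSeq, GRCh38.p14). A match was present in 24.8% of all 35116 promoters of this length, and 4 or more matches in 0.37% of them. MT2A held 7 matches, MT1X 4 and SLC30A1 1, whereas MTF1 and both entries of SLC39A10 held 0, and 1 of the 3 entries of SLC39A8 held 1. These letters are a description of the sequence and not a test of binding. The promoters of the 3 members with matches that are known targets of MTF1 are shown 5′ to 3′ on the strand of the gene, with the matches in capitals.
MT2A, chr16:56608334-56608583, plus strand: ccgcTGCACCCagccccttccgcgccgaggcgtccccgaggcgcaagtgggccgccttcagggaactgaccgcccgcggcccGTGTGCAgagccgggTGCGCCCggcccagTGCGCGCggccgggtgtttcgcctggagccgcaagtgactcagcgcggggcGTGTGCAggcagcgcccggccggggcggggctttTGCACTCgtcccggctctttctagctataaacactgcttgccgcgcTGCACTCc
MT1X, chr16:56682220-56682469, plus strand: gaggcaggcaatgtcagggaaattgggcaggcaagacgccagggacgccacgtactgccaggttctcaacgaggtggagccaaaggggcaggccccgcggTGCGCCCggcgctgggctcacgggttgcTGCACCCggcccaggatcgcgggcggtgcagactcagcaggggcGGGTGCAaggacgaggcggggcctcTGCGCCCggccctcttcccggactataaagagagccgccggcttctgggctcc
SLC30A1, chr1:211579162-211579411, minus strand: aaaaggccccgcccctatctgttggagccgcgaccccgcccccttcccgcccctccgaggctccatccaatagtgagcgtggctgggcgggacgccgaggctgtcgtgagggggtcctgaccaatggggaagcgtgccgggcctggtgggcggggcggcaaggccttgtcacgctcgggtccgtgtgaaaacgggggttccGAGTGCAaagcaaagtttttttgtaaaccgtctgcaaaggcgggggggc
In these windows MT2A had 5 matches on the strand of the gene and 2 on the other, MT1X had 3 and 1, and the single match of SLC30A1 was on the other strand. The core of the antioxidant response element, the motif of NRF2, was searched as TGACNNNGC on both strands. It matched 1 time in each of MT2A, MT1X and SLC30A1 and 0 times in every entry of MTF1, SLC39A8 and SLC39A10. Of all promoters, 10.9% had at least 1 match.

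The first comparison asked how GFP cells respond to the loss of cystine. Of the 8 members tested, 2 were higher and 0 lower without Cyss as differentially expressed genes (DEGs, adjusted p under 0.1 in edgeR's quasi-likelihood test and a log2FC over 0.32 in size), against 1.57% of 17452 genes higher and 0.533% lower. Both were metallothioneins. At an unadjusted p under 0.05 there were 6 members, against 3160 of the 17452 genes. Of these members MT1E, MT1M, MT1X and MT2A were higher without Cyss, and SLC39A8 and SLC39A10 were lower. The median log2FC of the 8 was 0.12, against 0.00 for all genes tested.

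MT1X was higher without Cyss in GFP cells. Its normalized counts were 349, 371 and 375 with Cyss and 437, 521 and 561 without. The groups did not overlap, and the log2FC was 0.47 ± 0.08 (SE), with an adjusted p of 0.00796 (edgeR). This call held when any of the 6 libraries was left out, with log2FC from 0.386 to 0.564.

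MT2A, the main metallothionein of most human cells, had normalized counts of 5524, 5737 and 5579 with Cyss in GFP cells. Without Cyss the counts were 5894, 7519 and 8701, so that the groups did not overlap but the libraries without Cyss were spread widely. The log2FC was 0.39 ± 0.10, with an adjusted p of 0.0476 (edgeR). The call was not stable to the choice of libraries. The adjusted p (edgeR) rose to 0.11 without GFP with Cyss replicate 2, 0.116 without GFP with Cyss replicate 3, 0.155 without GFP without Cyss replicate 2 and 0.113 without GFP without Cyss replicate 3, when the log2FC was 0.256. It was 0.152 in DESeq2's Wald test on the same libraries.

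The other members did not pass in GFP cells. MT1E had a log2FC of 0.22 ± 0.06 (adjusted p = 0.0956, edgeR), under the fold threshold. MT1M had 0.31 ± 0.13 (adjusted p = 0.227, edgeR) with all libraries and passed without GFP with Cyss replicate 2, its highest library in that group (0.488, adjusted p = 0.0651, edgeR), whereas without GFP with Cyss replicate 3 the log2FC was 0.209. MTF1 had a log2FC of 0.03 with a 95% confidence interval from -0.07 to 0.13. The importers SLC39A8 and SLC39A10, which bring zinc into the cytosol, had log2FC of -0.17 ± 0.06 and -0.19 ± 0.06, with adjusted p of 0.146 and 0.11 (edgeR). SLC30A1 had a log2FC of -0.10 that rested on 1 library. Its normalized counts with Cyss were 3297, 2709 and 2613, and without GFP with Cyss replicate 1 the log2FC was 0.0142.

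The same comparison in NRF2 cells gave 4 members higher and 0 lower without Cyss, against 6.81% of 17266 genes higher and 5.14% lower. The 4 were the detected metallothioneins, MT2A, MT1X, MT1M and MT1E. The median log2FC of the 8 members was 0.35, against -0.01 for all genes tested. An unadjusted p under 0.05 was found for 6 of the 8, against 5887 of the 17266 genes.

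MT2A had normalized counts of 6347, 5459 and 5764 with Cyss and 10230, 10973 and 12312 without. The lowest library without Cyss was far above the highest one with Cyss. The fold was 1.91, with a log2FC of 0.93 ± 0.07 and an adjusted p of 1.47e-07 (edgeR), and the log2FC stayed between 0.856 and 0.993 over all 16 alternatives.

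The MT1 genes had smaller folds than MT2A, a difference between genes that was not tested. MT1X had counts of 396, 391 and 334 with Cyss and 519, 504 and 670 without, a log2FC of 0.60 ± 0.11 (adjusted p = 0.000897, edgeR). MT1M had 116, 88.7 and 103 with Cyss and 136, 153 and 161 without, a log2FC of 0.55 ± 0.13 (adjusted p = 0.00578, edgeR). In neither gene did the groups overlap. MT1E had 1020, 1055 and 1035 with Cyss and 1176, 1374 and 1577 without, a log2FC of 0.41 ± 0.08 (adjusted p = 0.00243, edgeR), and without NRF2 without Cyss replicate 3 its log2FC of 0.298 fell under the fold threshold.

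MTF1 and SLC30A1 had small differences in NRF2 cells that passed the adjusted p but not the fold threshold. MTF1 had counts of 1190, 1200 and 1259 with Cyss and 1488, 1468 and 1444 without, which do not overlap. Its fold was 1.2, with a log2FC of 0.27 ± 0.05 (adjusted p = 0.00152, edgeR). SLC30A1, the exporter of the plasma membrane, had counts of 2734, 2681 and 2525 with Cyss and 3442, 3379 and 2891 without. These groups did not overlap either, and the log2FC of 0.29 ± 0.06 (adjusted p = 0.00447, edgeR) became 0.366, past the fold threshold, without NRF2 without Cyss replicate 3. The importers had log2FC near 0, with confidence intervals from -0.21 to 0.10 for SLC39A8 and from -0.09 to 0.16 for SLC39A10.

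**Figure D1:**
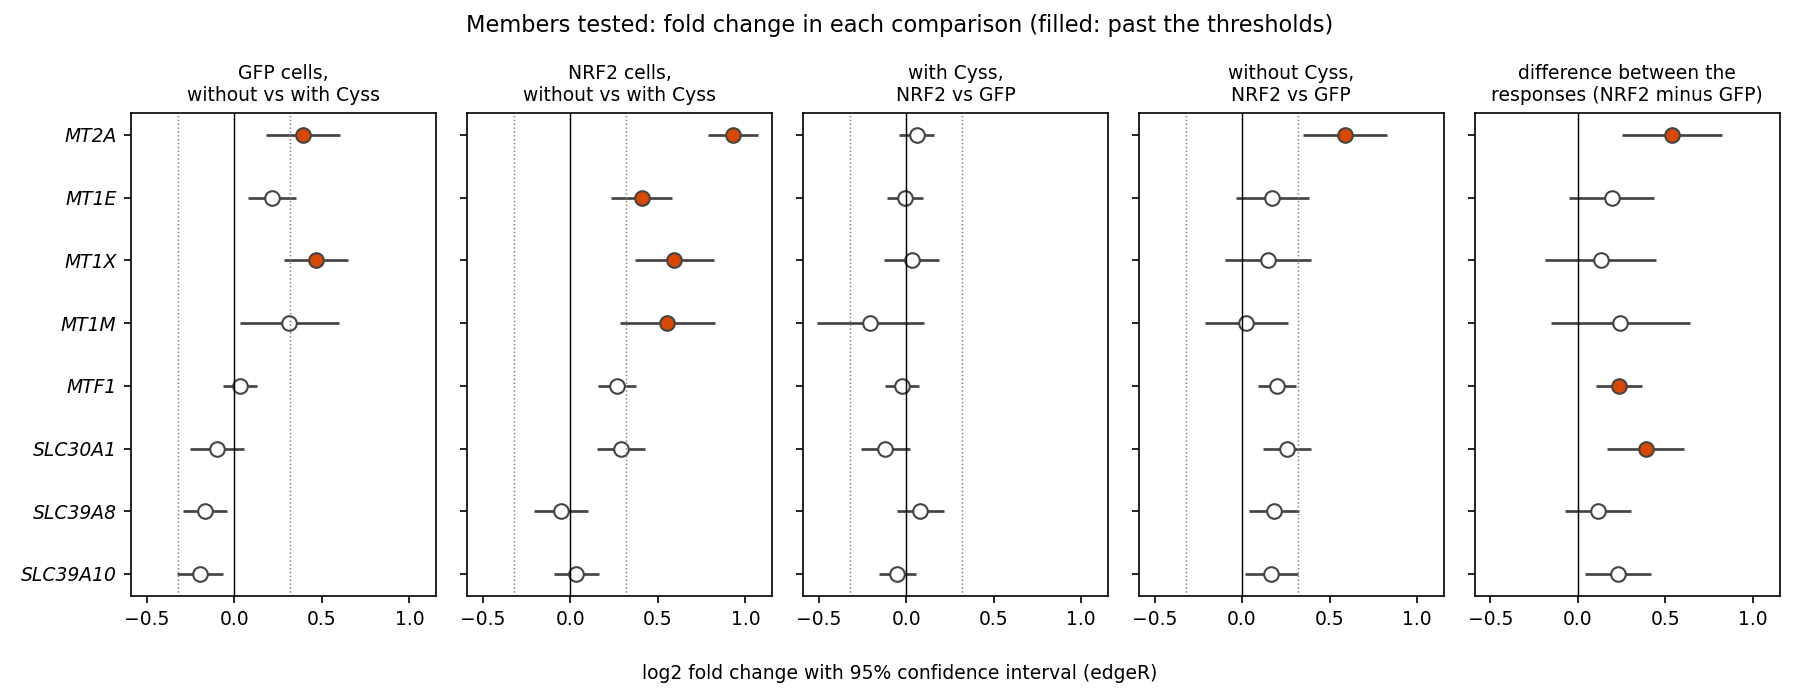
Log2 fold changes of the 8 tested members (points) with 95% confidence intervals (lines) from edgeR, in the 4 comparisons and, in the last panel, the interaction (response of NRF2 cells minus that of GFP cells). Filled points passed the thresholds, and dotted lines mark a log2FC of 0.32 in size. MT2A was at 0.39 in GFP and 0.93 in NRF2 cells without against with Cyss.

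NRF2 cells were next compared with GFP cells in the same medium. With Cyss, 0 of 8 members were DEGs in edgeR and 0 in DESeq2, against 1.36% of 17449 genes higher and 0.201% lower in NRF2 cells. An unadjusted p under 0.05 was found for 0 members, against 3321 of the 17449 genes. For MT2A the log2FC was 0.06, with a 95% confidence interval from -0.04 to 0.16. For SLC30A1 the interval ran from -0.26 to 0.02, and the widest interval, that of MT1M, from -0.51 to 0.10.

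Without Cyss, 1 member was higher and 0 lower in NRF2 cells, against 5.98% of 17297 genes higher and 4.09% lower. The member was MT2A, whose 3 libraries of NRF2 cells (10230 to 12312) lay above the 3 of GFP cells (5894 to 8701). Its fold was 1.5, with a log2FC of 0.59 ± 0.11 and an adjusted p of 0.00396 (edgeR), and the call held when any of the 6 libraries was left out, with log2FC from 0.448 to 0.726. All 8 members had a positive log2FC, from 0.02 to 0.59, with a median of 0.18 against -0.02 for all genes. MTF1 (0.20 ± 0.05), SLC30A1 (0.26 ± 0.06) and SLC39A8 (0.18 ± 0.07) passed the adjusted p (0.0152, 0.0152 and 0.0692, edgeR) but not the fold threshold, and the other MT1 genes had adjusted p from 0.229 to 0.897 (edgeR). Without NRF2 without Cyss replicate 3, SLC30A1 also passed the fold threshold, with a log2FC of 0.334. The comparisons share libraries and are not independent of each other.

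The difference between the 2 responses was tested directly as an interaction over all 12 libraries. Of the 8 members, 3 had a higher response in NRF2 than in GFP cells and 0 a lower one (adjusted p under 0.1), against 8.97% of 17674 genes higher and 6.13% lower. They belong to 3 roles, the metal-binding MT2A, the zinc sensor MTF1 and the exporter SLC30A1. For MT2A the response was 1.45-fold larger, a log2 difference of 0.54 ± 0.14 (adjusted p = 0.0194, edgeR). For SLC30A1 it was 0.39 ± 0.10 (adjusted p = 0.0277, edgeR) and for MTF1 0.24 ± 0.06 (adjusted p = 0.0253, edgeR). These 3 calls held in each of 20 alternatives. For MT2A the difference was 0.402 without GFP without Cyss replicate 1, its lowest library in that group, and for SLC30A1 it was 0.278 without GFP with Cyss replicate 1, its highest library in that group.

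The MT1 genes gave no such call, with log2 differences of 0.19 ± 0.12 for MT1E, 0.24 ± 0.19 for MT1M and 0.13 ± 0.15 for MT1X. Their confidence intervals include 0 and also the value of MT2A for MT1M, so that these genes are not shown to respond alike in both cell populations. MT1E passed without NRF2 without Cyss replicate 1 (0.293, adjusted p = 0.0669, edgeR), and its difference was 0.0823 (adjusted p = 0.63, edgeR) without NRF2 without Cyss replicate 3. SLC39A10 had a difference of 0.23 ± 0.09 (adjusted p = 0.117, edgeR) that passed under 6 of 20 alternatives, among them DESeq2 (adjusted p = 0.0998). It also passed with the replicate number as a block (adjusted p = 0.0787, edgeR), and when 1 of 3 libraries was left out (GFP with Cyss replicate 2, GFP without Cyss replicate 3 or NRF2 without Cyss replicate 3).

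Metallothioneins have near-identical copies in the genome, and reads that mapped to more than 1 place were not counted. Of the 75-base windows of the spliced MT1E transcript, 11.9% occurred at more than 1 place in the genome. For MT2A, MT1X, MT1M, MT1F and MT1G the share was 0%. The canonical MT1E transcript used here has 2 exons and 746 bases. Those of the other metallothionein members have 3 exons and between 398 and 425 bases. The share of MT1E therefore describes a different kind of transcript and is not directly comparable with theirs. A window across an exon junction whose only unbroken copy lies in a processed pseudogene is not counted in these shares. They can therefore understate what genes and pseudogenes share. The read length is not given in the sources used here, and with 50-base windows these shares were between 3.72% and 19.4%. MT2P1, a processed pseudogene of MT2A without introns at chr4:69242041-69242223 (GRCh37, plus strand), was counted with 2004 to 5053 reads per library. It was singled out after its counts were seen. The coding sequence of MT2A and that of MT2P1 are shown without the stop codon, 5′ to 3′, with the bases that differ in capitals.
MT2A: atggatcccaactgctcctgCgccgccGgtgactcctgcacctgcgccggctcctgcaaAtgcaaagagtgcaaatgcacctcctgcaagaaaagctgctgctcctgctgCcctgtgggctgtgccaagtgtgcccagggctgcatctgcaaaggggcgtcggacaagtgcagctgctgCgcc
MT2P1: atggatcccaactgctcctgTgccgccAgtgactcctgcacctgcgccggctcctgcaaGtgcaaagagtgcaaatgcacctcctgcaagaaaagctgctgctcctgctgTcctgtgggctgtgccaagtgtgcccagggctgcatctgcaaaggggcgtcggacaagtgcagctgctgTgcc
They differ at 5 of 183 bases, and 88 of the 109 windows of 75 bases in MT2P1 match the spliced MT2A with at most 2 mismatches. Of the 327 such windows in MT2A, 138 span an exon junction and have no unbroken copy in the genome. The reads on MT2P1 numbered between 35.2 and 41.3 per 100 reads on MT2A in every library, and MT2P1 had log2FC of 0.39 ± 0.10 in GFP and 0.88 ± 0.09 in NRF2 cells without against with Cyss (adjusted p = 0.0478 and 3.96e-06, edgeR). Without Cyss it was also higher in NRF2 than in GFP cells (0.49 ± 0.13, adjusted p = 0.0183, edgeR), and it passed the interaction (0.49 ± 0.15, adjusted p = 0.055, edgeR). When 1 library was left out, the call in GFP cells held in 2 of 6 fits, that in NRF2 cells and that between the cells without Cyss in 6 of 6, and that of the interaction in 8 of 12. MT1XP1, a processed pseudogene of MT1X on chromosome 1, had between 51.4 and 71.4 reads per 100 on MT1X, and its sequence differs from MT1X at 7 of 186 bases. MT1P3, on chromosome 20, is the only other pseudogene of the 7 in the tables with enough reads to be tested. An exon of MMP24OS overlaps MT1P3 on the other strand, and reads were counted without regard to strand. Which of these genes the reads on MT1P3 came from was not tested. In GFP cells without Cyss, MT1XP1 was higher (0.48 ± 0.10, adjusted p = 0.0159, edgeR) and MT1P3 was not (0.26 ± 0.15) unless GFP without Cyss replicate 1 was left out (0.465, adjusted p = 0.0173, edgeR). In NRF2 cells both were higher (0.69 ± 0.10 and 0.38 ± 0.13, adjusted p = 0.000188 and 0.0436, edgeR). The call for MT1P3 was kept in 2 of the 6 fits that left out 1 library, and its log2FC was 0.211 without NRF2 without Cyss replicate 3. Between NRF2 and GFP cells, neither MT1XP1 nor MT1P3 was a DEG in edgeR or DESeq2, with Cyss (0 at an unadjusted p under 0.05) or without (1). MT1XP1 passed there without NRF2 without Cyss replicate 1 (0.346, adjusted p = 0.051, edgeR). Whether reads of the genes were placed on these pseudogenes was not tested.

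**Figure D2:**
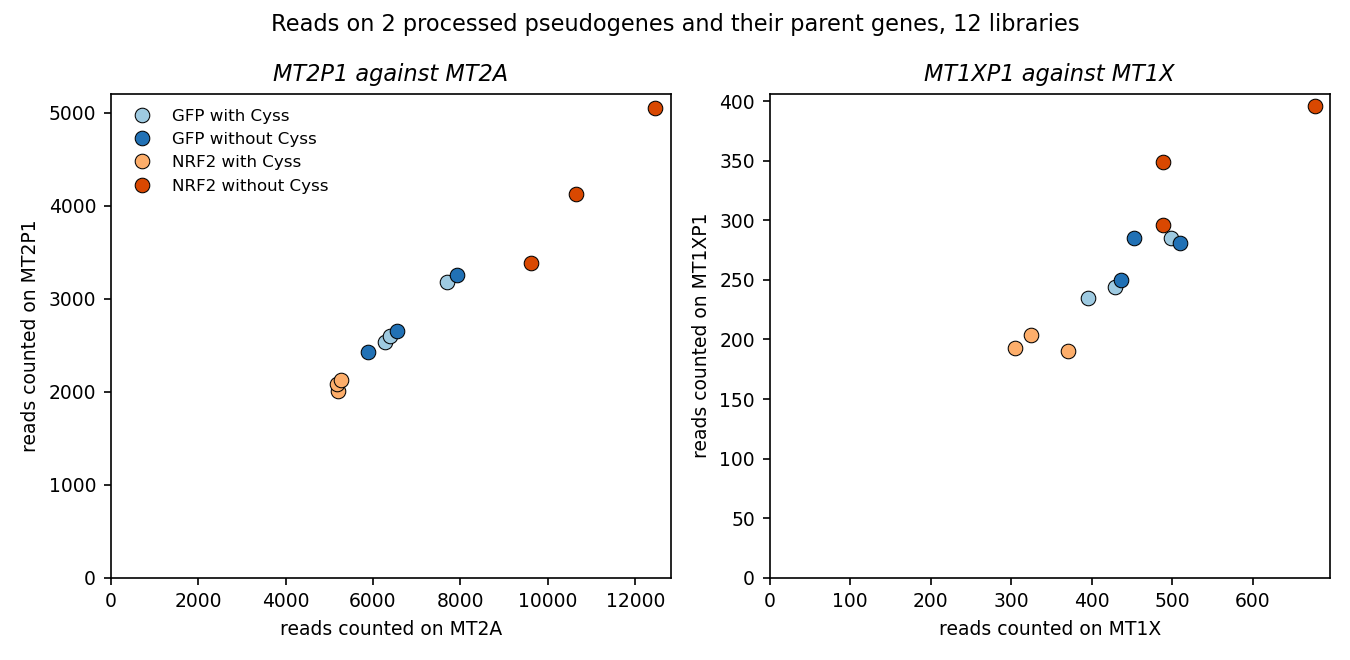
Raw reads counted on the processed pseudogenes MT2P1 and MT1XP1 (vertical axes) against those on MT2A and MT1X (horizontal axes), 1 point per library, colored by group. MT2P1 had between 35.2 and 41.3 reads per 100 on MT2A in each of the 12 libraries.

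To take genes and pseudogenes together, normalized counts were summed over the 20 metallothionein genes and pseudogenes in the tables. Reads that mapped to more than 1 place are missing from these sums too. The sum was 9890 ± 251 (SD, n = 3) in GFP cells with Cyss, 12852 ± 2266 in GFP cells without, 10150 ± 590 in NRF2 cells with and 18206 ± 2148 in NRF2 cells without. The ratio without to with Cyss was 1.3 in GFP and 1.79 in NRF2 cells. Reads on MT2A made up between 56.4 and 63.1% of these sums.

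Of 15 other zinc carriers tested, 0 were DEGs in GFP cells without Cyss, against 1.57% of all genes higher and 0.533% lower. In NRF2 cells 1 was higher and 1 lower, near the 6.81% and 5.14% of all genes. Of the 6 SLC30 genes among them, 0 were DEGs in GFP cells (1 at an unadjusted p under 0.05, 0 DEGs in DESeq2). In NRF2 cells 1 was lower, SLC30A3, a carrier that loads zinc into vesicles, with counts of 89.0, 89.8 and 88.8 with Cyss and 56.4, 51.5 and 56.4 without (log2FC -0.70 ± 0.14, adjusted p = 0.00227, edgeR). SLC30A7, which moves zinc into the Golgi, passed the interaction only (0.34 ± 0.12, adjusted p = 0.0801, edgeR). Its counts in NRF2 cells without Cyss were 2395, 1883 and 1837, and without replicate 1 of that group, the library with the highest share of reads outside genes (7.84%), the difference was 0.206 (adjusted p = 0.167, edgeR). The call held in 5 of the 12 fits that left out 1 library.

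Of the 9 SLC39 genes, 0 were DEGs in GFP cells without Cyss (1 at an unadjusted p under 0.05, 0 DEGs in DESeq2) and 1 was higher in NRF2 cells. This was SLC39A14, an importer of zinc and iron at the cell surface, which had counts of 11346, 11492 and 11239 with Cyss and 15548, 16331 and 17141 without. The groups were well apart, with a log2FC of 0.52 ± 0.05 (adjusted p = 9.61e-07, edgeR). In GFP cells its log2FC was 0.18 ± 0.04 (adjusted p = 0.034, edgeR), under the fold threshold. The response was larger in NRF2 than in GFP cells by 0.34 ± 0.06 on the log2 scale (adjusted p = 0.00255, edgeR). Between NRF2 and GFP cells in the same medium, 0 of these 15 carriers were DEGs in edgeR or in DESeq2, with Cyss or without. Of all genes, 1.36% were higher and 0.201% lower with Cyss, and 5.98% and 4.09% without. With Cyss 7 had an unadjusted p under 0.05, against 3321 of 17449 genes, and without Cyss 3, against 5962 of 17297. SLC39A14 was among those that passed the adjusted p but not the fold threshold. Its log2FC was -0.11 ± 0.03 with Cyss and 0.22 ± 0.05 without (adjusted p = 0.0754 and 0.0152, edgeR).

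Copper is the other metal that metallothioneins bind. Of 10 copper carriers and chaperones, all tested, 0 were DEGs in each of the 4 comparisons in edgeR and in DESeq2. In the order of the comparisons above, 2, 2, 0 and 3 had an unadjusted p under 0.05. Among all genes these were 3160 of 17452, 5887 of 17266, 3321 of 17449 and 5962 of 17297. The shares of all genes called DEGs were 1.57, 6.81, 1.36 and 5.98% higher and 0.533, 5.14, 0.201 and 4.09% lower, so that a count of 0 among 10 genes is near the background. Their log2FC lay between -0.22 and 0.19 in GFP cells and between -0.19 and 0.16 in NRF2 cells without against with Cyss. Here SLC31A1 passed the adjusted p but not the fold threshold in GFP (0.19) and NRF2 cells (0.16, adjusted p = 0.0383 and 0.0264, edgeR). So did ATP7A (0.28) and COMMD1 (-0.30) in NRF2 against GFP cells without Cyss (adjusted p = 0.0149 and 0.0158, edgeR).

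Since glucocorticoids also induce metallothioneins, a list of 8 genes linked to the glucocorticoid response, among them the receptor gene NR3C1, was examined. Of these 7 were tested. The list does not give the direction in which glucocorticoids move each gene, so a count of genes higher is not a measure of a glucocorticoid response. TSC22D3 (GILZ), a classic target of the glucocorticoid receptor, was the 1 gene of the list that was higher in GFP cells without Cyss, with counts of 287, 271 and 281 with Cyss and 483, 544 and 460 without (log2FC 0.83 ± 0.08, adjusted p = 1.7e-05, edgeR). Of all genes, 1.57% were higher in GFP cells without Cyss. In NRF2 cells 3 were higher, against 6.81% of all genes, and TSC22D3 was not among them. They were DUSP1, a phosphatase of MAP kinases (0.60 ± 0.08, adjusted p = 0.000111, edgeR), the kinase SGK1 (0.52 ± 0.07, adjusted p = 0.000122, edgeR) and NR3C1, the receptor itself (0.45 ± 0.05, adjusted p = 6.08e-06, edgeR). KLF9 passed the adjusted p but not the fold threshold in GFP (0.23 ± 0.07) and NRF2 cells (0.30 ± 0.07, adjusted p = 0.0855 and 0.00465, edgeR). So did TSC22D3 in NRF2 cells (0.23 ± 0.08, adjusted p = 0.061, edgeR). PER1 (0.12 and 0.12) and FKBP5 (-0.07 and 0.24) did not pass the adjusted p in GFP or NRF2 cells. Without Cyss, NRF2 cells had less TSC22D3 than GFP cells, with a log2FC of -0.70 ± 0.08 (adjusted p = 0.000391, edgeR), while DUSP1 (0.79 ± 0.09) and SGK1 (0.36 ± 0.10) were higher (adjusted p = 0.000328 and 0.0232, edgeR). The call for SGK1 was lost without GFP without Cyss replicate 1 or 2 (adjusted p = 0.104 and 0.112, edgeR) and without NRF2 without Cyss replicate 3 (log2FC 0.269), and that for DUSP1 held in 6 of 6 such fits. Of all genes, 5.98% were higher and 4.09% lower in NRF2 against GFP cells without Cyss. With Cyss, 0 of the 7 were DEGs in edgeR or DESeq2, against 1.36% of all genes higher and 0.201% lower, so that this 0 is near the background. An unadjusted p under 0.05 was found there for 3 of the 7, against 3321 of 17449 genes.

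Over the 12 libraries, the genes whose log2 normalized counts followed those of MT2A most closely among 13528 with a mean of at least 50 were METRNL and RRP12 (Pearson's r = 0.993 for both), MT2P1 (0.990), MAFF (0.989) and IL6 (0.987). Those closest to SLC30A1 were PUM2 (0.978), FEM1C (0.974), OSBPL8 (0.973), FUBP3 (0.968) and STK17B (0.964). The libraries form 4 groups of 3, so these values describe likeness across groups as much as within them.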

How the data were processed

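RNA was sequenced from 12 samples in 4 groups of 3. According to the labels and the methods, the authors made TruSeq mRNA libraries, sequenced them single end, mapped the reads to hg19 with TopHat 2.1.0 and Bowtie, and counted them on exons with HTSeq 0.11.2 without regard to strand. The annotation version is not given in the sources used here. The deposited values are raw counts per gene symbol. Reads on genes numbered 27334061 to 44734611 per library, and between 15.9 and 17.1% of all reads were left unassigned to a gene and stayed out of library sizes. As in the methods, 523 genes named as rRNA were removed, which left 55242 genes.

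In R 4.3.3, counts were normalized by TMM (edgeR 4.0.16). A gene was tested where its mean normalized count reached 10 in at least 1 of the groups compared. The quasi-likelihood test of edgeR was run on the 6 libraries of each comparison and, for the interaction, on all 12, and p-values were adjusted over all genes tested by the Benjamini-Hochberg method. Genes were called DEGs at adjusted p under 0.1 with log2FC over 0.32 in size, and for the interaction at adjusted p under 0.1. Where the authors used DESeq2, it served here as an alternative (1.42.0). On simulated counts of 13529 genes, at 2-fold, between 98.5 and 100% of 200 changed genes were recovered, with 3 to 27 false calls. Levels by library are on a common TMM scale over the 12 libraries. Replicates are separate samples by their labels, which do not say that they came from separate cultures, so p-values measure the spread between these samples. Pairs of replicates differed by more than sampling noise (chi-square per degree of freedom from 2.11 to 11.7).

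Genes named are the 10 members, every gene of 6 lists (other metallothioneins, their pseudogenes, other SLC30 and SLC39 genes, copper carriers, glucocorticoid-responsive genes) that passed a test, the 5 genes most like MT2A and SLC30A1, and NFE2L2. Cell type markers, undetected metallothioneins, MT2P1, MMP24OS, KLF9, PER1, FKBP5 and the copper genes SLC31A1, ATP7A and COMMD1 are named beside this rule. The members and lists were chosen with earlier results of these data known. Gene positions are from GENCODE 44 on GRCh37 and promoters from RefSeq on GRCh38.p14, where MT1E, MT1F, MT1G and MT1M had no entry. Alternatives were other scalings, filters, thresholds and tests, all 12 libraries in the fit, rRNA kept, a replicate block, each library left out, another window length and another gene length. Plots used Python 3.11.15 and matplotlib 3.10.9.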

Additional observations from a re-analysis of the deposited data

Results flagged for a closer look

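The response to Cyss depletion differed between NRF2 and GFP cells by the interaction test (edgeR, adjusted p under 0.1) for 3 members, 6 genes of the other lists and the pseudogene MT2P1. The log2 difference, NRF2 minus GFP cells, was 0.54 for MT2A, 0.487 for MT2P1, 0.236 for MTF1 and 0.388 for SLC30A1. Among the other zinc carriers it was 0.342 for the importer SLC39A14 and 0.337 for SLC30A7, and the call for SLC30A7 held in 5 of the 12 fits that left out 1 library. Among glucocorticoid-responsive genes it was 0.629 for DUSP1, 0.4 for SGK1, 0.368 for NR3C1 and -0.596 for TSC22D3, and the calls for SGK1 and MT2P1 held in 8 of the 12 fits each. The calls for MT2A, MTF1, SLC30A1, SLC39A14, DUSP1, NR3C1 and TSC22D3 held in all 12. TSC22D3 was the 1 gene of these lists called with a smaller response in NRF2 cells. SLC30A3 had a difference of -0.487 (adjusted p = 0.117, edgeR) and passed without GFP without Cyss replicate 3 (-0.604, adjusted p = 0.0469, edgeR).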

How the results depend on the processing

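Over the alternatives, 635 of 672 values of members kept their direction and their side of the thresholds. The number of members higher without Cyss in GFP cells was 1 in place of 2 in DESeq2's Wald test, and between 1 and 2 when a library was left out. Without Cyss, the number higher in NRF2 against GFP cells was 4 in place of 1 with no fold threshold, and between 1 and 2 when a library was left out. The estimates that changed sign were not called in any of these fits. With scaling by library size only, these were SLC39A10 in NRF2 cells (-0.0233), MT1E in NRF2 against GFP cells with Cyss (0.000411), and MT1M (-0.00718) and MT1P3 (-0.0197) in the same cells without Cyss. When a library was left out, the log2FC without against with Cyss ran from -0.164 to 0.0142 for SLC30A1 and from -0.074 to 0.0175 for DUSP1 in GFP cells, and from -0.00965 to 0.0853 for SLC39A10 in NRF2 cells. In NRF2 against GFP cells with Cyss it ran from -0.0244 to 0.0128 for MT1E, -0.0128 to 0.107 for MT1X, -0.0851 to 0.0302 for SLC30A7, -0.02 to 0.0551 for MT2P1, -0.00396 to 0.107 for MT2A and -0.0376 to 0.119 for MT1XP1. Without Cyss it ran from -0.0293 to 0.0962 for MT1M and from -0.191 to 0.163 for MT1P3. For the interaction it ran from -0.0815 to 0.264 for MT1P3, -0.0712 to 0.0179 for NFE2L2 and -0.0134 to 0.211 for MT1X. The cause of these changes was not tested. With 50-base windows, the share found at more than 1 place in the genome was 19.4% for the 2-exon transcript of MT1E. It was 3.72% for MT1F, 13.0% for MT1G, 12% for MT1M, 8.45% for MT1X and 10.5% for MT2A. The order of levels per kilobase in GFP cells with Cyss was the same with the longest transcript as the length, whereas in NRF2 cells without Cyss MT1X moved from rank 4 to 6, below SLC39A10 and MT1M, and in the remaining groups MT1X and MT1M changed places. MT2P1 was added to the values after the data were seen.

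Over all genes, library size scaling changed the split of higher and lower calls from 1176 and 887 (57% higher) to 936 and 1397 (40.1%) in NRF2 cells without against with Cyss, from 1034 and 708 (59.4%) to 876 and 1001 (46.7%) in NRF2 against GFP cells without Cyss, and from 1585 and 1084 (59.4%) to 1124 and 1981 (36.2%) for the interaction, while the numbers of members called were the same under the 3 scalings. In NRF2 against GFP cells with Cyss, 237 higher and 35 lower became 91 and 14 in DESeq2. Without Cyss, 708 lower became 422 in DESeq2. With no fold threshold, the higher and lower calls were 543 and 490, 2633 and 2379, 724 and 398, and 2425 and 2551 in the 4 comparisons. With no filter, lower calls were 185 in place of 93 in GFP cells and 66 in place of 35 in NRF2 against GFP cells with Cyss, where they were 21 with all 12 libraries in the fit. With an adjusted p under 0.05 they were 17 there and 528 in place of 1084 for the interaction. With a library left out, lower calls ran from 55 to 133 in GFP cells, from 15 to 56 with Cyss and from 425 to 840 without it in NRF2 against GFP cells, and from 482 to 1562 for the interaction, and higher calls from 142 to 254 with Cyss and from 913 to 2119 for the interaction. Replicate numbers were not taken as pairs, since the correlation of same-numbered libraries was not over 0.1 in every pair of any comparison (from -0.161 to 0.248). With a replicate block, 2, 4, 0 and 1 members were higher in the 4 comparisons and 4 in the interaction, where SLC39A10 was added (0.229). MT1F and MT1G could not be tested at this depth, and 3 libraries a group limit the precision of the rest.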
